A study of Mus musculus with 6 samples.

Results

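DNA methylation of scraped colon epithelium was compared between mice given azoxymethane, a colon carcinogen, with dextran sulfate sodium, which inflames the colon (AOM/DSS), and control mice. All mice were C57BL/6, an inbred laboratory strain, and 18 weeks old. The comparison rests on 4 of the 6 samples of the series, the 2 AOM/DSS samples and the 2 controls. The other 2 samples, from mice with AOM/DSS plus curcumin, a polyphenol of turmeric, served only to sort regions by level and, in the count tests, to estimate the spread. The proximal colon and the tumors were removed before scraping, so tumor tissue was not what was measured. The labels do not say whether replicates are separate mice, and p-values therefore measure only the spread between these samples, which may be technical. Levels are methylated calls in percent of all calls at the CpGs of a region, and 179922 of 209687 captured regions (85.8%) had a value in all 6 samples.

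In mammals a methyl group is placed on the cytosine of most CpG dinucleotides by DNA methyltransferases. CpG islands, the dense runs of CpGs at many promoters, are as a rule kept free of it. Loss of methylation from CpG-poor, methylated sequence together with gain at some islands is a known trait of colorectal tumors, and colitis is known to bring inflammatory cells and cytokines such as tumor necrosis factor into the mucosa. A measured level is an average over all cells of the sample, so another mix of cells and another methylation within cells cannot be told apart here.

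Some captured regions could be tied to a promoter by their CpG pattern. Promoters were taken from RefSeq, build GRCm38.p6, each 300 bases long. A region was matched where its span and number of CpGs equal those of a run of CpGs in a promoter of the same chromosome, and where at least 3 other regions matched further promoters at the same spacing to within 10 bases. The error of this matching was not measured. In this way 1005 of 27025 genes were matched. The 4 promoters below are shown because the results on genes turn on them, with the CpGs that the captured region covers in capitals. They belong to Tnf, which encodes the cytokine tumor necrosis factor, Sp140, a chromatin reader of immune cells, Slco4a1, a transporter of organic anions, and Fbxw7, the substrate receptor of a ubiquitin ligase that marks growth-promoting proteins for decay and a tumor suppressor of the colon.
Tnf: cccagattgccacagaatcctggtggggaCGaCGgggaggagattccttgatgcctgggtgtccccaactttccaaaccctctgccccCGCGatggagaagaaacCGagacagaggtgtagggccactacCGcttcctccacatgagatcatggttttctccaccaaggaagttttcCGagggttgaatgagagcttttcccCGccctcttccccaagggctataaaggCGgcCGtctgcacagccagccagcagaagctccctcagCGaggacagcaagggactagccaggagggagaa
Sp140: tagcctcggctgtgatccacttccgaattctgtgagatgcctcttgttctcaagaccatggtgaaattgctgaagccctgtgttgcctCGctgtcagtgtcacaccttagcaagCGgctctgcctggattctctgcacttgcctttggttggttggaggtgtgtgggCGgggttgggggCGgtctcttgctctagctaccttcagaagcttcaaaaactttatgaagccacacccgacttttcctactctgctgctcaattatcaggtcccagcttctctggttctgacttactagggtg
Slco4a1: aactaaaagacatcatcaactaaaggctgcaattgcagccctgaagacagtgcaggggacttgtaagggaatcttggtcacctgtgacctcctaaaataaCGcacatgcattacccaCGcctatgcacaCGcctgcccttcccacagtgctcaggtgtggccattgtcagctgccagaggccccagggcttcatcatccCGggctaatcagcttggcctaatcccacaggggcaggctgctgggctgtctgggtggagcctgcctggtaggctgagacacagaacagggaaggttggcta
Fbxw7: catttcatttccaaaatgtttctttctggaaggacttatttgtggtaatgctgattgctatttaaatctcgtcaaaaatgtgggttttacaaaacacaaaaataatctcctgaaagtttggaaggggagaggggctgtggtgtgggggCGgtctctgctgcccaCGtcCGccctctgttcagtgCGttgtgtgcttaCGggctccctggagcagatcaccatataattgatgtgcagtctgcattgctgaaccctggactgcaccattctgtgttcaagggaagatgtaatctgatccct
In the build of the files, mm9, the covered part of the Tnf promoter is chr17:35338934-35339172 and holds 11 CpGs. It is the only region of chromosome 17 with that span and CpG number. The others lie at chr1:87497116-87497207 (Sp140, 4 CpGs), chr2:180195533-180195632 (Slco4a1, 4 CpGs) and chr3:84756031-84756080 (Fbxw7, 5 CpGs). The match of Tnf was backed by 12 other regions and that of Slco4a1 by 5. Those of Sp140 and Fbxw7 were backed by 3 each, the least that was accepted.

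Total calls were 30168228 and 24682973 in control replicates 0 and 1, and 30727568 and 28766117 in AOM/DSS replicates 0 and 1. Mitochondrial DNA, which serves as a nearly unmethylated reference, showed 0.956% and 0.991% methylated calls in control and 0.975% and 0.987% in AOM/DSS, so the AOM/DSS values lay between those of the controls. Of the marker lists for the tissue, promoters of 3 of 54 epithelial genes and 4 of 93 leukocyte genes were matched. The promoters of Epcam, an epithelial adhesion molecule, Ceacam1, an adhesion molecule of the gut lining, and Chga, of enteroendocrine cells, were between 0% and 9.76% in all 4 samples, where the values of 0 rest on 27 to 65 calls and allow up to 11.1% and 4.62%. The 4 leukocyte promoters were not alike, with Cd48 at 76.3% to 87.6%, Runx3 at 64.0% to 76.4%, Ltb at 20.6% to 44.4% and Cd68 at 15.1% to 18.8%. With so few markers the make-up of the samples was not tested. Over all regions, the mean level was 41.3% and 41.1% in control against 40.2% and 40.4% (-0.899 points).

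The loss in AOM/DSS sat in CpG-poor sequence, and the densest regions of intermediate level went the other way. Regions with 3 to 4 CpGs that stood at 50 to 70% were at 62.5% and 62.1% in control and at 58.9% and 59.3% in AOM/DSS (8433 regions), or -3.20 points between means of 62.3% ± 0.311 and 59.1% ± 0.302 (SD, n = 2). The difference shrank with each step in CpG number, to -2.51 points at 5 to 9 CpGs, -1.56 at 10 to 19 and -0.470 at 20 to 29, where the groups overlapped. At 30 or more CpGs its sign had turned: the 53 such regions stood at 57.7% and 58.3% in control and at 61.5% and 59.6% in AOM/DSS, which is 2.55 points higher. Level classes were set by the mean of the curcumin samples, outside the difference itself.

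The mean difference followed the same order in the other classes of methylated regions. In the class of 70 to 90% it was -2.82 points at 3 to 4 CpGs, -2.11 at 10 to 19 and -0.267 at 30 or more, where the groups overlapped. At 30 to 50% it ran from -1.78 points at 3 to 4 CpGs to 0.799 at 20 to 29 and 1.45 at 30 or more, and in the last 2 classes both AOM/DSS samples lay above both controls. Above 90% it ran from -1.42 to -0.733 points. Of the 20 classes at 30% and over, both AOM/DSS samples were below both controls in 15 and above them in 3, and the groups overlapped in 2.

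**Figure D1:**
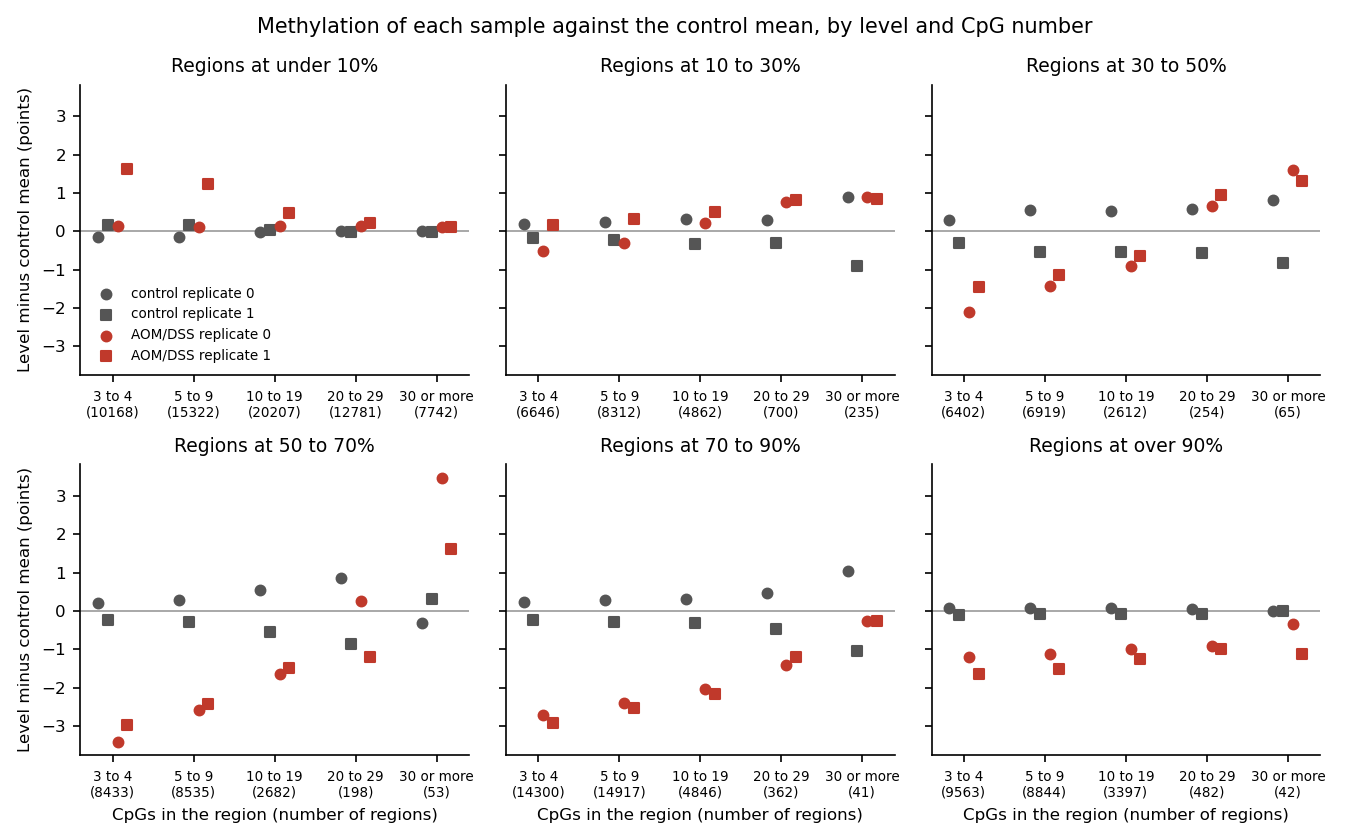
Mean level of each sample minus the mean of the 2 controls, in percentage points, by number of CpGs in the region (x axis, number of regions in brackets) for 6 classes of level; points are single samples. AOM/DSS lies lowest at 3 to 4 CpGs and 50 to 70%, by 3.20 points on average, and highest at 30 or more CpGs in the same class.

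Sparse and dense regions at 30 to 70% drew together in AOM/DSS. Between 30 and 70%, regions of 3 to 4 CpGs stood above those of 20 or more CpGs by 4.78 and 5.51 points in control and by 1.40 and 2.53 points in AOM/DSS. This gap differed by -3.18 points, with both AOM/DSS samples below both controls (exact permutation p = 0.333, two-sided, the smallest that 2 samples against 2 allow, here and for every set of groups called apart). At 70 to 90% the gap was -0.407 and 0.168 points in control and -1.56 and -1.93 points in AOM/DSS. It changed by -1.62 points with the groups apart, and there the sparse regions fell below the dense ones. The part of the dense regions in the gap at 30 to 70% was less firm than that of the sparse ones. The 570 regions of 20 or more CpGs at 30 to 70% were at 48.9% and 47.7% in control and 49.2% and 48.6% in AOM/DSS, so the groups overlapped, and without control replicate 1 the difference went from 0.595 to -0.024 points. The 118 regions among them with 30 or more CpGs were at 47.2% and 46.6% in control and at 49.3% and 48.3% in AOM/DSS, which are apart.

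Counts of single regions followed the means in part. Over all 179922 regions, 2.1% were lower and 0.723% higher in AOM/DSS by 10 points or more with an unadjusted p under 0.05 (edgeR, quasi-likelihood). Among regions of 3 to 4 CpGs at 50 to 90% these shares were 4.63% and 0.638%. Lower regions did not become steadily fewer with CpG number: at 50 to 70% their share was 4.76% at 3 to 4 CpGs, 4.02% at 5 to 9, 4.10% at 10 to 19, 6.06% at 20 to 29 (12 of 198) and 0 of 53 at 30 or more, and at 70 to 90% it was 4.56% in the sparsest class and 4.88% (2 of 41) in the densest. Among the 570 regions of 20 or more CpGs at 30 to 70%, 21 were lower (3.68%) and 18 higher (3.16%), while among the 118 of them with 30 or more CpGs 3 were lower (2.54%) and 10 higher (8.47%). In 20.8% of all regions both AOM/DSS samples were below both controls and in 14.8% they were above. These shares were 14.6% and 20% for the 570 regions and 8.47% and 31.4% for the 118, and for regions of 3 to 4 CpGs at 50 to 90% they were 29.8% and 9.68%. The sparse class had fewer calls, with a median of 60 per region and sample against 378.5 in the 118 densest.

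By mean level, CpG density gave the same picture as CpG number and added to it. Among regions at 50 to 90%, those with under 2 CpGs per 100 bases were at 73.6% and 72.9% in control and at 69.8% and 69.4% in AOM/DSS (-3.65 points). With 2 to 4 CpGs per 100 bases the difference was -2.73 points, with 4 to 8 it was -2.28 and with 8 or more -1.83. All 4 density classes had the groups apart. The order held with the number of CpGs fixed. At 3 to 4 CpGs the difference went from -3.71 points in the least dense class to -2.05 in the densest, and at 5 to 9 CpGs from -3.56 to -1.79. Counts followed only in part. From the least to the most dense class at 50 to 90%, regions with the groups apart and lower fell from 33.5% to 23.8%. Regions lower by 10 points with an unadjusted p under 0.05 (edgeR) had no steady order, at 4.83%, 4.11%, 4.55% and 4.35%.

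Regions under 10% gained a little methylation, and there the 2 AOM/DSS samples were not alike. At 3 to 4 CpGs the level was 4.26% and 4.58% in control, 4.55% in AOM/DSS replicate 0 and 6.05% in AOM/DSS replicate 1, so the groups overlapped and the difference of 0.881 points rested on replicate 1. At 20 to 29 CpGs the levels were 2.05% and 2.02% in control and 2.19% and 2.25% in AOM/DSS. At 30 or more CpGs they were 1.71% and 1.69% in control against 1.82% and 1.82%. In these dense classes both AOM/DSS samples lay above both controls, by 0.181 and 0.12 points. No region of 30 or more CpGs under 10% changed by 10 points at an unadjusted p under 0.05 in edgeR's test, of 7742.

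Distance from CpG-dense sequence ordered the loss as well. A region with 20 or more CpGs is called island-like here, since no annotation of islands in mm9 was used. Island-like regions stood at 7.25% and 7.13% in control and 7.33% and 7.35% in AOM/DSS. Regions within 0.5 kb of one overlapped between the groups, with a difference of 0.021 points. The difference was -0.771 points at 0.5 to 2 kb, the outer part of island shores, -0.931 at 2 to 4 kb, -1.10 at 4 to 20 kb, -1.26 at 20 to 100 kb and -1.57 beyond 100 kb, each with the groups apart.

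Part of this order follows from the higher level of remote regions, and part remained within a class of level. At 70 to 90%, regions within 0.5 kb of an island-like region were at 80.3% and 78.6% in control and at 78.1% and 77.7% in AOM/DSS (-1.58 points). From 0.5 to 100 kb the classes lay close together, between -2.23 and -2.54 points, and beyond 100 kb the levels were 82.0% and 81.8% against 78.6% and 78.8% (-3.20 points). The remote regions stood above those at 0.5 to 2 kb by 0.436 and 1.01 points in control and by -0.376 and 0.127 points in AOM/DSS, a change of -0.848 points with the groups apart. The order was also seen with CpG number held at 3 to 4, where regions at 70 to 90% differed by -1.31 points within 0.5 kb, by -2.39 at 0.5 to 2 kb and by -3.64 beyond 100 kb. At 50 to 70% such regions differed by -1.35 points within 0.5 kb and by -2.94 to -3.61 in the classes further out, which had no steady order. With more CpGs, the classes of distance between the ends had no steady order at 70 to 90% either. There the difference within 0.5 kb and beyond 100 kb was -1.86 and -2.91 points at 5 to 9 CpGs, and -1.42 and -2.49 at 10 to 19. At 50 to 70% with 10 to 19 CpGs it was 0.229 points within 0.5 kb, with the groups overlapping.

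**Figure D2:**
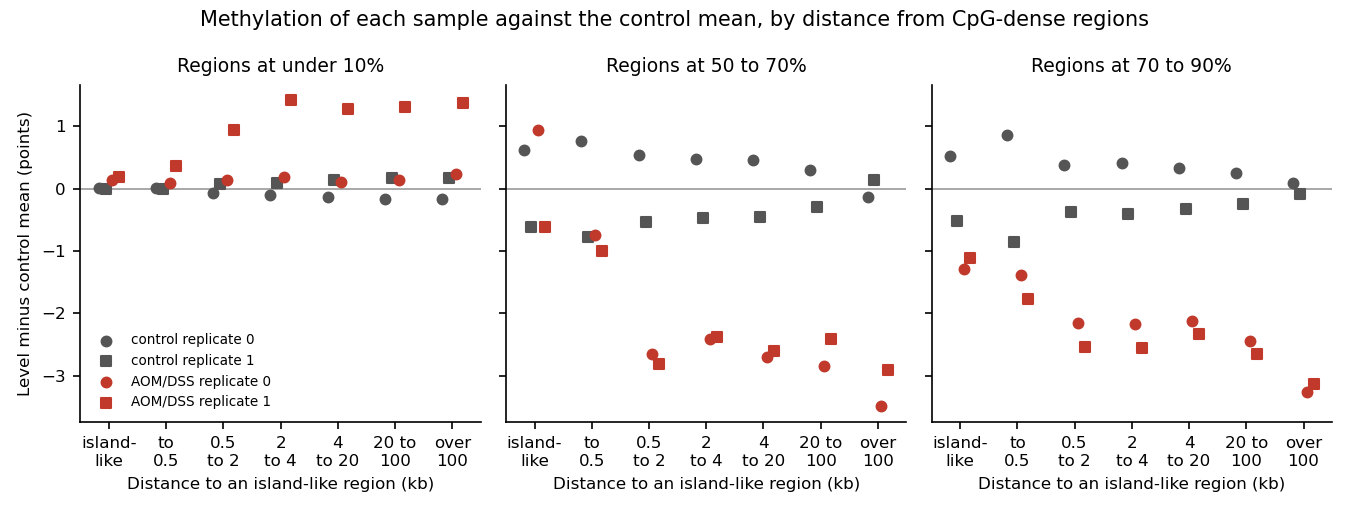
Mean level of each sample minus the mean of the 2 controls, in percentage points, by distance to the nearest region with 20 or more CpGs, for regions under 10%, at 50 to 70% and at 70 to 90%; points are single samples. In methylated regions both AOM/DSS samples lie lowest beyond 100 kb, and under 10% AOM/DSS replicate 1 stands above the other samples from 0.5 kb outward.

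Low-level regions were also higher further out, mainly in AOM/DSS replicate 1. Beyond 100 kb, regions under 10% were at 3.93% and 4.26% in control, 4.33% in AOM/DSS replicate 0 and 5.47% in replicate 1. In island-like regions under 10% the 4 values were 1.92%, 1.90%, 2.05% and 2.09%. What sets AOM/DSS replicate 1 apart at these regions was not tested.

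Along the chromosomes the loss was spread over most of the genome. In 1 Mb bins with at least 20 regions, 1577 of 1788 bins (88.2%) had a lower mean level in AOM/DSS, and the mean difference was -0.936 ± 0.848 points (SD over bins). Both AOM/DSS samples were below both controls in 1051 bins (58.8%) and above them in 36 (2.01%). The difference predicted from the level and CpG number of each bin's regions had an SD of 0.315 points and correlated with the measured one at r = 0.418, across bins that share all 4 libraries. Compared library by library, the difference between an AOM/DSS and a control sample varied over bins with an SD of 1.02 to 1.16 points, against 1.05 between the 2 controls and 0.983 between the 2 AOM/DSS samples. The shift was thus general, and bins varied little more between the groups than within them.

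The sparsest bins lost most per methylated region. In bins with 20 to 45 captured regions, regions at 70 to 90% stood at 81.9% and 81.7% in control and 78.8% and 78.8% in AOM/DSS (-3.02 points). In bins with 133 to 473 regions they were at 81.9% and 81.2% in control and at 79.4% and 79.1% in AOM/DSS (-2.27 points). The 2 groups of bins in the middle lay between, at -2.72 and -2.59 points.

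**Figure D3:**
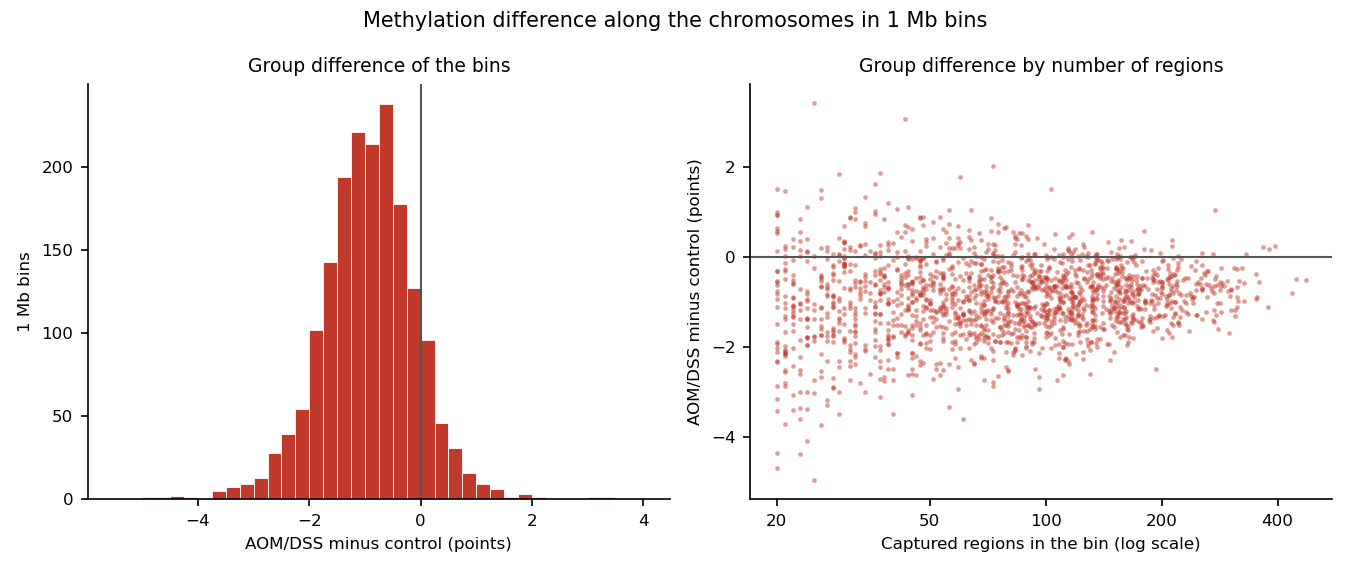
Left, number of 1 Mb bins by the AOM/DSS minus control difference in mean level, in percentage points; right, the same difference against the number of captured regions in the bin on a log scale, 1 point per bin. Of 1788 bins, 88.2% lie below 0, and the spread is widest where a bin holds few regions.

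The bins with the largest loss among those with groups apart lay on chromosome 13 at 50 to 51 Mb (-4.97 points), chromosome 8 at 44 to 45 Mb (-4.69), chromosome 15 at 33 to 34 Mb (-4.39), chromosome 5 at 26 to 27 Mb (-4.36) and chromosome 9 at 3 to 4 Mb (-4.09). They hold 20 to 25 regions each. On chromosome 13 the 4 samples stood at 60.3% and 59.2% in control and at 54.2% and 55.4% in AOM/DSS, and 19 of the 25 regions were lower. The bins with the largest gain lay on chromosome 12 at 24 to 25 Mb (3.403 points), chromosome 14 at 4 to 5 Mb (3.04), chromosome 11 at 8 to 9 Mb (2.00), chromosome 8 at 64 to 65 Mb (1.87) and chromosome 11 at 65 to 66 Mb (1.82). On chromosome 12 the level was 45.3% and 44.9% in control and 48.9% and 48.2% in AOM/DSS, with 18 of 25 regions higher. On chromosome 14 it was 12.5% and 15.5% in control and 17.2% and 16.9% in AOM/DSS, with 34 of 43 regions higher. None of these 10 bins passed edgeR's quasi-likelihood test on summed calls after adjustment.

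That test called 4 bins lower (0.224%) and 0 higher, with 220 bins at an unadjusted p under 0.05. The absence of gains did not hold when a sample was left out: without AOM/DSS replicate 1, 4 bins were lower and 5 higher, and without any 1 of the other 3 compared samples 2 bins were higher. The bin with the smallest adjusted p, 0.000366 in edgeR's test, was on chromosome 15 at 74 to 75 Mb. Its pooled calls were 69.8% and 68.6% methylated in control and 65.9% and 65.7% in AOM/DSS, and 63 of its 111 regions were lower. The others were on chromosome 16 at 57 to 58 Mb, chromosome 19 at 61 to 62 Mb and chromosome 9 at 42 to 43 Mb. On chromosome 19 the pooled calls fell by 3.42 points while the mean over the 24 regions was 1.09 points higher with the groups overlapping, so there the direction depends on how regions are weighted. No called bin holds a called block.

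Neighbouring regions changed alike over short distances. For regions of 10 to 90%, the correlation of the AOM/DSS minus control difference between 2 neighbouring regions was 0.245 at gaps up to 0.1 kb (2558 pairs), 0.0986 at 0.5 to 1 kb and 0.0212 at 5 to 10 kb. The difference between the 2 controls gave 0.281, 0.0926 and 0.0300 at the same gaps, so differences between the controls ran along the genome to a similar extent. The AOM/DSS replicates gave lower values, 0.157, 0.0289 and 0.0104. Pairs share all 4 libraries and often the same fragments, and the values are a description. When the difference of one region was taken from replicate 0 of each group and that of its neighbour from replicate 1, which share no library, the correlation was 0.0711, 0.0353 and 0.00504.

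**Figure D4:**
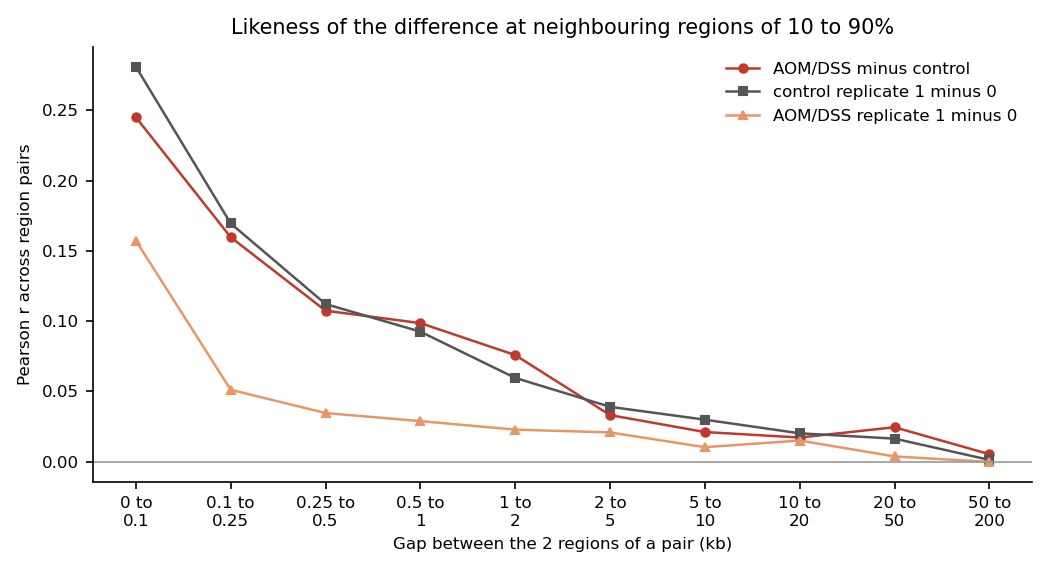
Pearson correlation across pairs of neighbouring regions of 10 to 90%, by the gap between them in kb, for the AOM/DSS minus control difference and for the difference between the 2 replicates of each group. All 3 lines fall below 0.05 by gaps of 2 to 5 kb, and the group difference stays close to the control replicates.

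The test called more blocks than single regions. Regions with gaps of at most 1 kb were joined into 91313 blocks without regard to methylation, and 38803 of them hold 2 or more regions. On summed calls, 21 blocks (0.023%) had an adjusted p under 0.05 in edgeR's test together with 10 points of difference or more, 18 lower (0.0197%) and 3 higher (0.00329%) in AOM/DSS. Of the 21 called blocks, 14 hold 1 region only, so their counts were not summed over neighbours. By unadjusted p under 0.05 and 10 points, 2.78% of blocks were lower and 0.772% higher. Of the single regions, 7 (0.00389%) passed the adjusted rule, 5 lower (0.00278%) and 2 higher (0.00111%), and all 7 lie in 5 of these blocks. Without the minimum of 10 points 27 blocks passed, and of the 6 smaller differences 5 were gains by pooled calls. At 1 of these 5, chr16:35981819-35984491, the groups overlapped in all 4 regions, with differences of -0.638 to 0.755 points. The pooled 4.78 points came with calls that ran from 115 to 1300 at its first region, over all 6 samples of the series. The balance of losses and gains depended on the libraries: without control replicate 0, 15 blocks were lower and 17 higher, without AOM/DSS replicate 0 they were 14 and 7, and without AOM/DSS replicate 1 they were 1 and 1.

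**Figure D5:**
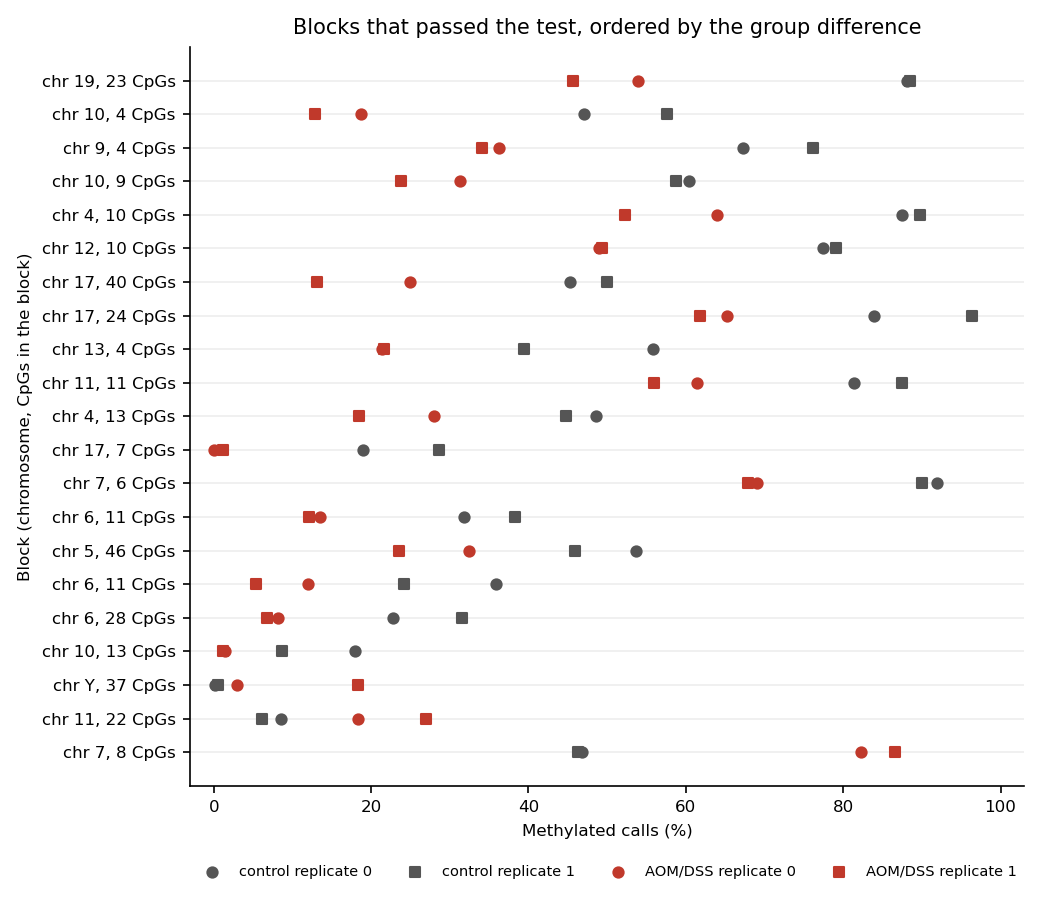
Share of methylated calls in each of the 4 samples, in percent, for the 21 blocks that passed, ordered from the largest loss to the largest gain in AOM/DSS; circles are replicate 0 and squares replicate 1. Both AOM/DSS samples lie on one side of both controls in every row, and on chromosome Y replicate 1 stands at 18.3% against 2.96% in replicate 0.

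The largest loss was at chr19:21892333-21893376, 3 regions with 23 CpGs in the window of Tmem2, a gene for a cell surface hyaluronidase. It was 88.1% and 88.5% methylated in control and 53.9% and 45.7% in AOM/DSS (adjusted p = 1.16e-05, edgeR). Its middle region carried most of the change, at 83.3% and 84.7% in control and 40.4% and 33.3% in AOM/DSS, while the regions on either side differed by -17.7 and -23.5 points. It is 1 of 2 blocks that kept an adjusted p under 0.05 when each of the 6 samples was left out in turn.

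The other is the largest gain, chr7:139763446-139763700, 2 regions with 8 CpGs. It was 46.9% and 46.3% in control and 82.2% and 86.6% in AOM/DSS (adjusted p = 0.00015, edgeR). Both of its regions passed on their own, with gains of 40.7 and 33.5 points. It lies 4245 bases from the nearest island-like region and held no matched promoter.

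The block that covers Tnf, chr17:35337598-35339172, was 45.2% and 50% in control and 24.97% and 13.1% in AOM/DSS (adjusted p = 0.00557, edgeR). Without AOM/DSS replicate 1 the adjusted p was 0.457 (edgeR). Tnf is on the minus strand, so regions of lower coordinate than its promoter lie on the side of the transcribed gene. The loss sat there. The region at chr17:35338139-35338267 went from 54.3% and 60% in control to 13.5% and 8.33% in AOM/DSS, and that at chr17:35338382-35338812 from 53.0% and 58.4% to 28.2% and 14.5%. The promoter region itself had 0 methylated calls of 159 and of 113 in control, which allows up to 1.89% and 2.65%, and 1.63% and 1.35% in AOM/DSS. The promoter shown above was thus nearly unmethylated in all 4 samples, and the loss lay beside it in methylated sequence.

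The next losses by size were single regions of few CpGs, far from island-like regions. The block at chr10:17403808-17403883 (4 CpGs) was 47.1% and 57.6% in control and 18.7% and 12.9% in AOM/DSS. The block at chr9:45655401-45655474 (4 CpGs) was 67.2% and 76.1% in control and 36.2% and 34.04% in AOM/DSS. The block at chr10:98544195-98544465 (9 CpGs) was 60.4% and 58.7% in control and 31.3% and 23.8% in AOM/DSS. Each lies between 18554 and 38549 bases from an island-like region, and in none do the groups come within 20 points of each other. The calls on chromosome 10 were lost without AOM/DSS replicate 1 (adjusted p = 0.118 and 0.294, edgeR), and that on chromosome 9 was lost whichever of the 6 samples was left out.

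The other 5 of the 10 largest losses lay on chromosomes 4, 12, 17, 13 and 11. The block at chr4:138390509-138390711 was 87.5% and 89.8% in control and 63.9% and 52.2% in AOM/DSS. The block at chr12:36943573-36943825 was 77.4% and 79.2% in control against 48.98% and 49.3%, where the 2 AOM/DSS samples differed by less than 1 point. The differences of the remaining 3 were -26.6 points at chr17:71011914-71012187, -26.1 at chr13:25099288-25099331 and -25.8 at chr11:107289355-107289725. The first of these is an island-like region of 24 CpGs that was 83.9% and 96.4% methylated in control, against 65.2% and 61.8% in AOM/DSS. The call on chromosome 12 was kept in 3 of the 6 fits that each leave out a sample and the other 4 calls in 1, and with the 4 compared samples alone the call on chromosome 12 was kept (adjusted p = 0.0321, edgeR) while those on chromosomes 4, 17, 13 and 11 were lost. The 8 further losses that passed ranged from -23.5 to -12.0 points, and over all 18 the control mean ran from 13.3% to 90.9%.

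Of the 18 losses that passed, 3 held an island-like region, and their calls were not firm. Island-like regions make up 12.8% of all regions, a share of regions and not of blocks. Besides chr17:71011914-71012187, the block chr5:147071718-147072918 was 53.6% and 45.9% in control and 32.5% and 23.5% in AOM/DSS. That pooled difference of -21.8 points was larger than in either of its regions (-10.8 and -17.2 points). Pooling weights regions by calls, and calls in its dense region were uneven, from 317 to 2501 over all 6 samples of the series. The region chr6:136435400-136435706 (28 CpGs) was 22.8% and 31.5% in control and 8.11% and 6.79% in AOM/DSS. These 3 calls were kept in 1, 2 and 1 of the 6 fits, and with the 4 compared samples their adjusted p was 0.182, 0.127 and 0.102 (edgeR).

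Besides that on chromosome 7, 2 gains passed. The island-like region chr11:78766136-78766509 (22 CpGs) was 8.58% and 6.18% in control and 18.3% and 27.0% in AOM/DSS (adjusted p = 0.0325, edgeR). The block chrY:346418-347418 (37 CpGs) was 0.204% and 0.536% in control, 2.96% in AOM/DSS replicate 0 and 18.3% in replicate 1. Without AOM/DSS replicate 1 neither passed, with an adjusted p of 0.577 for both (edgeR). Another 2 gains under 10 points complete the 5 with the smallest p in that direction and did not pass for their size: chr17:75706492-75706934 was 1.97% and 1.86% in control and 6.56% and 8.74% in AOM/DSS, and chr16:21831663-21832050 was 0.344% and 0.503% against 5.94% and 8.73%. Of the smaller gains, chr14:4517895-4519818 (81 CpGs) went from 4.96% and 7.43% to 12.6% and 13.3% and lies in the second of the gaining 1 Mb bins named above.

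The windows of known loci are rounded mm9 positions from general knowledge, and 21 of 22 held regions. Both AOM/DSS samples were below both controls in 6 of 21 windows and above them in 2. These shares were 20.8% and 14.8% among single regions and 58.8% and 2.01% among 1 Mb bins. A window is a mean over 2 to 875 regions, so neither is a like measure. The Tnf window, 5 regions, was 46.6% and 49.1% in control and 25.4% and 17.8% in AOM/DSS, and its difference went from -26.2 to -16.4 points when regions under 100 calls were left out. Tmem2, 21 regions, was 75.6% and 73.2% in control and 68.8% and 68.9% in AOM/DSS. Of its 21 regions, 3 (14.3%) were lower by 10 points with an unadjusted p under 0.05 (edgeR), against 2.1% of all regions. These 3 are the regions of the block described above. With all calls of the Tmem2 window pooled its difference was -9.28 points in place of -5.52. The H-2 complex, which holds the histocompatibility genes and Tnf, was 32.5% and 31.9% in control against 31.2% and 31.6%. Without the Tnf window it differed by -0.609 points, less than the difference over all regions.

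Imprinted loci, where 1 parental copy is methylated, mostly overlapped between the groups. Of 11 maternally methylated windows, 3 had the groups apart (2 lower and 1 higher). Among single regions 20.8% were apart and lower and 14.8% apart and higher, though a window averages several regions. The joint level of the 11 windows was 51.7% and 51.4% in control and 50.3% and 52.7% in AOM/DSS. Kcnq1ot1, 3 regions with 80 CpGs, was 80.5% and 80.3% in control and 70.1% and 65.6% in AOM/DSS, and the groups were apart in each of the 3 regions. Mest, 4 regions, was 44.0% and 46.8% in control and 32.2% and 40.3% in AOM/DSS. Grb10, 2 regions, went the other way, from 30.3% and 16.5% to 36.5% and 41.1%. None of their regions passed after adjustment (edgeR). The other maternally methylated windows (Peg3, Snrpn, Peg10, Nap1l5, Plagl1, Zrsr1, Igf2r and Nnat), the paternally methylated H19 and Dlk1-Meg3 and the Gnas cluster overlapped, with differences from -1.92 to 4.13 points. Rasgrf1 held no region with values in all samples.

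The Hox clusters, which hold developmental transcription factors in dense CpG sequence, did not share a direction. Their 444 regions had a joint level of 19.5% and 19.5% in control and 19.5% and 19.6% in AOM/DSS. Hoxa was 17.8% and 18.2% in control and 18.2% and 19.6% in AOM/DSS, with both AOM/DSS samples above both controls, and its difference of 0.968 points rested mostly on replicate 1. Hoxd was 20.1% and 21.7% in control and 19.5% and 18.99% in AOM/DSS (-1.69 points), again with the groups apart. Hoxb and Hoxc overlapped.

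Matched promoters moved little. The 725 matched regions with values in all samples stood at 18.0% and 17.4% in control and at 17.4% and 17.6% in AOM/DSS, and the groups overlapped. None passed after adjustment (edgeR). With an unadjusted p under 0.05 and 10 points, 5 were lower (0.69%) and 3 higher (0.414%), against 2.1% and 0.723% of all regions. Most matched promoters are poor in methylation, with 507 of them under 10%, and in that class 1 was lower (0.197%) and 0 higher. Among all regions under 10% these shares were 0.133% and 0.365%, so the share over regions of all levels is not a like measure.

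The genes of these 8 promoters were named after their values were seen. Fbxw7 had the smallest p of them, with a promoter region at 14.3% and 6.98% in control and 38.4% and 34.4% in AOM/DSS (unadjusted p = 0.000264, adjusted p = 0.414, edgeR). It rests on 64 to 119 calls per sample. Sp140 was 42.5% and 52.2% in control and 27.7% and 30.7% in AOM/DSS. Slco4a1 was 6.49% and 16.4% in control, against 2.38% in AOM/DSS replicate 1 and 0 of 64 calls in replicate 0, which allows up to 4.69%. The groups were apart in all 8. These were picked by unadjusted p and size of difference in the same samples, so that count tells nothing further. The others are the predicted genes Gm28809, Gm13073 and Gm40696, which were lower, and Gm52318 and C330022C24Rik, which were higher.

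Of the genes on the lists, few could be followed. Among 4 leukocyte genes, Ltb, a cytokine gene next to Tnf, was 44.4% and 31.6% in control and 20.6% and 29.03% in AOM/DSS, Cd48 was 87.6% and 78.6% against 76.5% and 76.3%, and Cd68, of macrophages, was 18.1% and 18.8% against 15.1% and 16.6%. The groups were apart in each of these 3 by small margins, with unadjusted p of 0.164, 0.196 and 0.614 in edgeR's test. Over all regions, both AOM/DSS samples were below both controls in 20.8%. Of the epithelial promoters, Chga was 3.28% and 4.95% in control and 0.719% and 1.99% in AOM/DSS, also apart. Ceacam1 was 2.5% and 3.13% in control against 0 methylated calls in AOM/DSS, which allows up to 11.1% and 9.68%. Epcam overlapped. Runx3, a transcription factor of lymphocytes that is also on the list of colorectal cancer genes, overlapped. Of the other 2 cancer genes matched, Fbxw7 is described above and Ndrg4, a gene known to be methylated in colorectal tumors, was 2.99% and 6.02% in control and 6.00% and 6.45% in AOM/DSS.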

How the data were processed

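DNA was captured and sequenced after bisulfite treatment, by which cytosines without a methyl group are read as thymine, with the Agilent Mouse Methyl-Seq system per the labels. Bismark 0.15.0, ChIPseeker 1.10.3, R 3.4.0 and build mm9 are named in the submitters' processing notes; no source used here gives their settings. In the deposited files the authors give counts: per region the number of CpGs, of methylation calls and of methylated calls, with no value under 20 calls. Whether positions count from 0 or 1 is not given, so they may be off by 1 base.

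The members, lists, classes and windows were chosen with earlier results of these data known. Levels were averaged per sample over regions (numpy 2.4.6, pandas 2.3.3). Single regions, blocks and bins were tested with edgeR 4.0.16 (quasi-likelihood, Benjamini-Hochberg over all units) on methylated and unmethylated counts of all 6 samples. A call needed 10 points and an adjusted p under 0.05; bins needed no minimum difference. Named blocks are the 10 largest changes per direction that passed, filled up to 5 by smallest p; named bins are the 5 largest per direction with groups apart. In simulated data the test called 38 of 100 blocks given a change of 40 points and 0 of 100 given 20 points. For single regions it called 1 and 0 of 100, and there were 0 false calls. The mean chi-square between replicates was 2.01 in control and 1.73 in AOM/DSS over regions of 10 to 90%. Calls of one read are not independent, and limits from a count of 0 (3 calls) cover counting error only. Median calls per region ran from 96 to 118 in the 4 samples compared.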

Additional observations from a re-analysis of the deposited data

How the results depend on the processing

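With 2 samples a group the calls were few and moved with the setting. The count of 21 blocks became 12 and 10 with at least 50 and 100 calls, 7 with only the 4 compared samples and 0 with limma on log2 ratios (6625 blocks at an unadjusted p under 0.05), and 2 to 32 when 1 sample was left out (2 without AOM/DSS replicate 1, 32 without control replicate 0). The count of 7 regions became 1 and 1 with at least 50 and 100 calls, 1 with the 4 samples and 0 with limma (11503 at an unadjusted p under 0.05), and 1 to 8 when 1 sample was left out. Of the 21 blocks, 2 passed in all 6 such fits, 3 in 5 and 11 in at most 1. The 4 bins called became 1 at 500 kb and 1 at 5 Mb, and 6 to 14 with 1 sample left out. Whether replicate numbers pair the samples is not known here, and deviations of same-numbered replicates correlated at 0.0548 across regions. With a replicate block the fits called 39 blocks, the 21 among those under the threshold, 41 regions and 17 bins.

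Of the differences by region type, that of dense regions changed sign under 2 settings. With calls of a class pooled, that of dense regions at 10 to 70% went from 0.733 to -0.224 points, that at 30 to 70% to 1.42, that of island-like regions to 0.252 and the sparse minus dense gap to -4.00. With 1 sample left out, that of dense regions at 30 to 70% ran from -0.024 (without control replicate 1) to 1.21. With 30 or more CpGs as dense, it was 1.94 and the gap -4.53, and the difference beyond 100 kb was -1.20. With at least 100 calls, that of sparse regions at 50 to 90% was -3.29 and that beyond 100 kb -1.21. Likeness at regions of 10 to 90% was 0.245 up to 0.1 kb and 0.0759 at 1 to 2 kb, against 0.181 and 0.0482 over all regions. Windows with groups apart numbered 11 to 17, not 8, with 1 sample left out, where a lone sample sets a group. When 1 sample was left out, the difference ran from -3.19 to -2.73 for sparse regions at 50 to 90%, 0.218 to 1.25 for dense regions at 10 to 70%, 0.0908 to 0.204 for island-like regions, -1.80 to -1.34 beyond 100 kb, -3.75 to -2.62 for the gap, and -1.14 to -0.561 for regions beyond 100 kb against those at 0.5 to 2 kb. With block gaps of 500 and 2000 bases 24 and 20 blocks passed, with 20 points as the minimum 17 and with no minimum 27.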
